A study of Homo sapiens with 6 samples.

Results

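The GLIS family is 3 zinc finger transcription factor genes, GLIS1, GLIS2 and GLIS3, and this report describes the open chromatin around them in EndoC-βH3 cells, a human beta-like cell line. The members are regions of an ATAC-seq table, 40 of 108542 in all. A region was a promoter region if it reached within 2 kb of a GENCODE protein-coding start site of a GLIS gene, which gave 6 regions. Of the regions that were no gene's promoter region, a distal one was counted where the start site nearest to its midpoint, among those of protein-coding transcripts, was that of a GLIS gene and lay within 100 kb, which gave 34 regions. GLIS3 held 26 of the 40, with 3 promoter and 23 distal regions. GLIS2 held 9, with 2 promoter and 7 distal regions, and GLIS1 held 5, with 1 promoter and 4 distal regions.

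The libraries came from 3 non-senescent cultures, left as control, and 3 senescent ones, in which 4-hydroxy tamoxifen (4-OHT) was given for 3 weeks. All 6 were made from 100000 cells each of the same line, which the labels give as genotype WT. The line carries a CreER recombinase that the drug activates. According to the paper, it was immortalized with hTERT and Large T-antigen transgenes, which the activated Cre cuts out. Cre activity, loss of these transgenes and drug exposure thus went together with senescence, and all libraries stood for 1 cell line. The study asked how accessibility differs between these states, but the table holds no value per library. The authors' own comparison in it was not used, which leaves a mean over all 6 libraries. Every level below is that authors' mean, with no SD, no n and no test, and it pools non-senescent and senescent cells.

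GLIS proteins have Krüppel-like zinc fingers that resemble those of the GLI and ZIC families, and they bind G-rich DNA elements. GLIS3 is needed for the formation of beta cells and for insulin gene transcription, where it acts together with factors such as PDX1, MAFA and NEUROD1. Loss of GLIS3 causes neonatal diabetes with hypothyroidism, and common variants near it are linked to diabetes. GLIS2 is known for cystic kidney disease and GLIS1 for its use in reprogramming of somatic cells to pluripotency. ATAC-seq marks DNA that the Tn5 transposase can reach, which is usually free of nucleosomes.

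The sequences on which the account turns are shown first, each from 5′ to 3′. Capitals mark every match to 14 short motifs, searched on both strands: the GLIS core TGGGGGGT, the NEUROD1 E-box CAGATGG, the MAF site TGCTGAC, FOXA TGTTTAC, homeodomain CTAATTA, AP-1 TGANTCA, the GC box GGGCGG, the CCAAT box CCAAT, CRE TGACGTCA, NRF1 GCGCATGC, HNF4 CAAAGTCCA, the CTCF core AGGGGGC, RFX GTTGCCAT and the TATA box TATAAA. Matches may overlap, as where a GC box runs into a CTCF core. The first set holds the 250 bases before 3 RefSeq start sites (GRCh38.p14), each on the minus strand. It was chosen because the first overlaps an open region in all but the bases nearest to the start site, the second lies within one and the third, before a GLIS3 start site further into the gene, has none.
GLIS1, chr1:53739165-53739414: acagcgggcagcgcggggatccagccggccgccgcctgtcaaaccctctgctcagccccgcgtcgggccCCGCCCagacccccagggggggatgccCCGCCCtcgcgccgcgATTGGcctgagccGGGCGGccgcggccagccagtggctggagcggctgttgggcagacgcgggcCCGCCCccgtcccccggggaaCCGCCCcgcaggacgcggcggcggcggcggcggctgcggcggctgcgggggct
GLIS3, chr9:4298497-4298746: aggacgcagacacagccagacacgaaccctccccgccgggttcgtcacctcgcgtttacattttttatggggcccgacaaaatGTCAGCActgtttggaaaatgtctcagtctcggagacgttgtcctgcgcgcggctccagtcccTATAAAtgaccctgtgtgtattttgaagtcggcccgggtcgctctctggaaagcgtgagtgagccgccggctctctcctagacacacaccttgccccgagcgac
GLIS3, chr9:4152184-4152433: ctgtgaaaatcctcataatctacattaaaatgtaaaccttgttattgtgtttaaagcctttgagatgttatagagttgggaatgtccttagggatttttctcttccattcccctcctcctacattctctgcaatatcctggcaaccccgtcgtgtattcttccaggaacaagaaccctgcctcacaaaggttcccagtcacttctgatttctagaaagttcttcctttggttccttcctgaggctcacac

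The second set holds the most open distal regions of GLIS2 and GLIS3, from the plus strand of hg38. They are the middle 300 bases of 3 regions and the whole of the fourth, which is 169 bp wide, the narrowest width in the table. Their levels per kb stood above the strongest promoter region of the same gene. This also held for 3 less open regions that are not printed. They are chr16:4306562-4306991 (1045 per kb) and chr16:4319521-4320329 (681) of GLIS2, and chr9:4315683-4315912 (401) of GLIS3. In the 300 bases around their midpoints, the first and last of these held none of the motifs. The other held NEUROD1 E-boxes and a GC box. The printed regions all hold matches, so they do not stand for all such regions.
GLIS2, chr16:4307659-4307958: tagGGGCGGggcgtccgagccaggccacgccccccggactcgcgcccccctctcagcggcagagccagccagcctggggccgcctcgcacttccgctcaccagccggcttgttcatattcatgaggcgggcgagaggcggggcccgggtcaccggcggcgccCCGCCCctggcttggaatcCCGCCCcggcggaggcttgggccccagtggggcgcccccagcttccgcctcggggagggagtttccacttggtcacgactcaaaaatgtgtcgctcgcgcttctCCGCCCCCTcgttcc
GLIS2, chr16:4303943-4304242: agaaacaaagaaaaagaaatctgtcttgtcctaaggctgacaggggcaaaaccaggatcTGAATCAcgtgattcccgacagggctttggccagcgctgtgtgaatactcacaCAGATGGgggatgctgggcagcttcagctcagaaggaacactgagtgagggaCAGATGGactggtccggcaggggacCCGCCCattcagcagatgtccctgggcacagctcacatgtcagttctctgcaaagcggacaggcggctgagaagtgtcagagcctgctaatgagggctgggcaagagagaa
GLIS3, chr9:4334454-4334753: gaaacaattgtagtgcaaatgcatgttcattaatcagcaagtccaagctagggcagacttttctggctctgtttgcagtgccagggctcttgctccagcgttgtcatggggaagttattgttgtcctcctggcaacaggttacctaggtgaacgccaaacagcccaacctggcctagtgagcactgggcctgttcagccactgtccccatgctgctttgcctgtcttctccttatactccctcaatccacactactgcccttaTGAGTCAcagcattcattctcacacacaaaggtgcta
GLIS3, chr9:4302261-4302429: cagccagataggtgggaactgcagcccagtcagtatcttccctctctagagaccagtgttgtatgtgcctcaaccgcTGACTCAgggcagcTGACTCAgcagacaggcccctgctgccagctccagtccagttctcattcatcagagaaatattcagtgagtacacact

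Promoters of the GLIS genes were open at moderate levels. Levels are given as mean signal per kb of region width, since regions differ in width. Over the 20094 promoter regions of the table, the median was 507 per kb, and the middle 50% ran from 231 to 914. The 6 GLIS promoter regions ran from 245 to 669 per kb with a median of 392, and 2 of the 6 were above the median of all promoter regions. None of the 6 reached the upper 25%. By the strongest promoter region of each gene, over the 15493 genes that had such a region, GLIS2 was higher than 48.2% of genes, GLIS1 than 39.6% and GLIS3 than 26.5%. The table holds no spread for any of these levels, so the order GLIS2, GLIS1, GLIS3 cannot be set against replicate error. With the levels of all promoter regions of a gene summed, GLIS2 was higher than 64.4%, GLIS3 than 57.8% and GLIS1 than 34.6% of genes. With the strongest region not divided by its width, GLIS2 was higher than 74.1%, GLIS3 than 28.5% and GLIS1 than 16.5% of genes, so that the place of GLIS1 and GLIS3 in this order depends on the scale.

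GLIS3 (chr9:3824127-4348392, minus strand, 524 kb) had 9 start sites of 10 protein-coding transcripts. An open region covered 5 of the 9, and the other 4 had none within 2 kb. The long transcripts begin near 4300068, where chr9:4299147-4300228 covered 3 start sites and part of the untranslated first exons. This region had a mean signal of 416, or 385 per kb, higher than 40.1% of all promoter regions. GLIS3-AS2, a long noncoding RNA gene, overlaps it, and ATAC-seq cannot assign openness to either strand. Next to it, chr9:4297249-4298769 covered the start site at 4298496. It had a signal of 455 over 1521 bp, or 299 per kb, higher than 32.0% of promoter regions. Its middle 300 bases were 71.0% G and C and held 3 GC boxes. The 250 bases before that start site, printed above, held a TATAAA match 104 bases and a MAF site 167 bases before it. TATAAA occurred in 10.7% and the MAF site in 3.43% of 35116 RefSeq windows of this kind.

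The internal start sites of GLIS3 differed among themselves. At 4147644 the region chr9:4147453-4148382 covered the start site of a shorter transcript, with a signal of 228 and a level of 245 per kb. This was the lowest of the 6 GLIS promoter regions, higher than 26.5% of all promoter regions. Its middle 300 bases were 37.3% G and C, against a median of 65.7% over all promoter regions. Further upstream, 3 start sites between 4152147 and 4152183 had no region, and the nearest one ended 3801 bp from the last of them. The RefSeq window before this site, the last of the first set above, was 42.0% G and C and held none of the 14 motifs. The start site at 4145193 lay 2260 bp from the nearest region.

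Distal regions made up most of the GLIS3 landscape. The 23 regions ran from 72.2 to 925 per kb with a median of 172, close to the median of 168 over all 88448 distal regions, and 12 of the 23 were above that median. Here and below, all distal regions are those that were no gene's promoter region, at any distance from a start site, without the 100 kb limit. Only 1, chr9:4334247-4334961, was among the top 5% of distal regions. It lay 34536 bp upstream of the start site at 4300068, in an intron of a noncoding GLIS3 transcript and in no protein-coding one. Its mean signal was 662 over 715 bp, or 925 per kb, higher than 95.1% of distal regions and 2.41 times the strongest GLIS3 promoter region (1.45 times by signal not divided by width). The middle 300 bases, printed above, held 1 motif match, an AP-1 site.

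**Figure D1:**
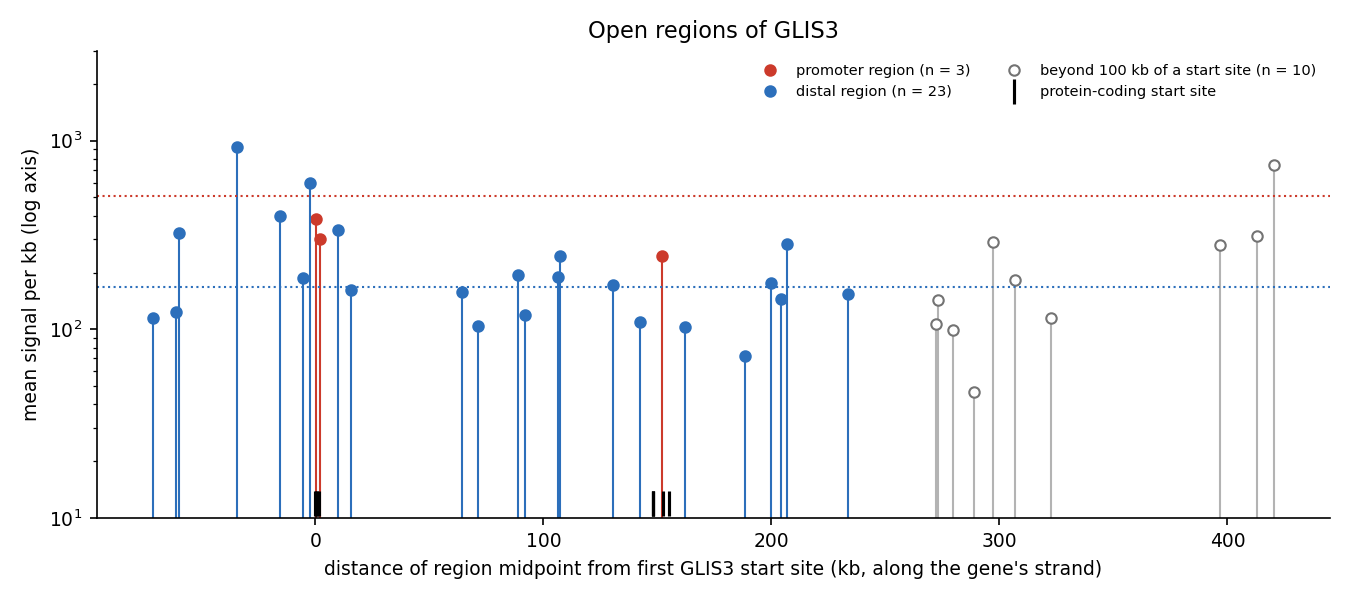
Level of each open region of GLIS3 (mean signal per kb, log axis, mean over all 6 libraries, no error available) against the distance of its midpoint from the first GLIS3 start site in kb, along the gene's strand. Dotted lines mark the medians of all promoter regions (507, red) and all distal regions (168, blue). The tallest point lies upstream of the first protein-coding start site at 925 per kb, and the 3 promoter regions stay under the red line.

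The other upstream GLIS3 regions varied widely. There were 7 distal regions upstream of the first protein-coding start site, from 115 to 925 per kb with a median of 325. Of these, 4 lay in introns of a noncoding GLIS3 transcript. Downstream of that start site were 16, from 72.2 to 337 per kb with a median of 160. chr9:4302261-4302429, 2277 bp upstream, had a signal of 101 over 169 bp, which gave 596 per kb, higher than 89.2% of distal regions. On the undivided scale it was higher than 58.0% of them, so its place depends on its narrow width. The motif matches within its bounds were 2 AP-1 sites. chr9:4315683-4315912 had 401 per kb and chr9:4305136-4305751 had 187. Both of these lay, like the preceding one, in an intron of the same noncoding transcript. The regions chr9:4302261-4302429 and chr9:4305136-4305751 also overlapped the long noncoding RNA gene GLIS3-AS2. Further out were chr9:4359001-4360832 with a signal of 596 and 325 per kb, chr9:4360900-4361156 with 124 per kb, and chr9:4371196-4371386 with 115 per kb, all 3 intergenic. The first of these 3 was 27.0% G and C in its middle 300 bases, the lowest of the 34 distal regions.

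All 16 GLIS3 distal regions downstream of the first protein-coding start site lay in introns of protein-coding transcripts. The strongest was chr9:4289802-4290874, 9730 bp downstream of the first start site, with a signal of 362 and 337 per kb. It was higher than 76.4% of distal regions and close in level to the promoter regions of the gene. chr9:4092915-4093433 followed with 285 per kb and chr9:4192518-4193086 with 244. The weakest, chr9:4111574-4111866, had a signal of 21.2 and 72.2 per kb. The remaining 12 ran between these values. The G and C content had a median of 39.7% over these 16 and 50.0% over the 7 upstream regions, against 44.7% over all distal regions.

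Motif matches were counted along GLIS3. The window was the 300 bases centred on each midpoint. AP-1 sites occurred in 4 of the 7 regions upstream of the first protein-coding start site and in 0 of the 16 downstream. Over all distal regions the share was 11.1%. In whole regions the counts were 4 of 7 and 4 of 16, beside 18.0% of all distal regions. The NEUROD1 E-box occurred in 2 of the 16 downstream regions, chr9:4066207-4066503 and chr9:4095569-4095790, and in 0 of the 7 upstream, beside 13.6% of all distal regions. An HNF4 match, present in 1.69% of distal regions, lay in chr9:4193434-4194253. An NRF1 match, present in 0.360% of them, lay in chr9:4283836-4284690. The GLIS core occurred in none of the 40 regions, beside 1.48% of all promoter and 0.751% of all distal regions. In whole regions of any width, 1 GLIS promoter region held it. These counts describe letters in a window. A match does not show that a factor binds, and the lack of a match does not exclude binding.

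GLIS3 had more distal regions than nearly all genes. Its 23 exceeded the count of 99.4% of 19676 protein-coding genes, and 118 genes, GLIS3 included, had at least 23. The gene also had much sequence to itself: the bases whose nearest protein-coding start site within 100 kb was a GLIS3 one summed to 350 kb, against a median of 68.2 kb over 17924 genes with at least 10 kb. Per 100 kb of this sequence, GLIS3 had 6.57 distal regions, higher than 87.0% of genes, beside a median of 2.50. A further 10 regions had a GLIS3 start site as the nearest but lay beyond 100 kb of it, all within the gene, at 46.6 to 747 per kb. The strongest of these 10, chr9:3879287-3880310, overlapped a coding exon and had a signal of 765. Its level of 747 per kb was higher than 92.6% of distal regions.

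GLIS2 (chr16:4314761-4339597, plus strand, 24.8 kb) had the highest promoter and distal levels of the 3 genes per kb. Its promoter region chr16:4313850-4315918 covered the start site at 4314761 and an untranslated exon, with a signal of 1384 over 2069 bp, or 669 per kb. This was higher than 61.7% of promoter regions. A second promoter region, chr16:4316691-4317692, lay in an intron, 624 bp past the start site at 4316067, with a signal of 400.0 and 399 per kb. The middle 300 bases of both regions held a GC box. Over the family, 4 of 6 promoter regions did, beside 55.6% of all promoter regions.

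Upstream of GLIS2, 3 regions were more open per kb than its promoter. Not divided by width, their signals were 1398, 588 and 449 beside 1384 at the promoter, so that 2 of the 3 then lay below it and the other was nearly equal. chr16:4307399-4308219, 6952 bp upstream, had a signal of 1398 over 821 bp, or 1703 per kb, higher than 98.9% of all distal regions. It covered the start site of a long noncoding RNA gene (ENSG00000288935), 185 bp from its midpoint. Its middle 300 bases were 73.0% G and C, with 4 GC boxes and a CTCF core. Of all distal regions, 2981 or 3.37% covered a start site of a gene that is not protein-coding, with a median of 339 per kb, and the GLIS2 region was higher than 95.2% of these. chr16:4303914-4304273, 10668 bp upstream, had 1632 per kb, higher than 98.7% of distal regions, and its middle 300 bases held 2 NEUROD1 E-boxes, 1 AP-1 site and 1 GC box. Between them, chr16:4306562-4306991 had 1045 per kb, higher than 96.1%, and held none of the 14 motifs in its middle 300 bases. The midpoints of chr16:4303914-4304273 and chr16:4306562-4306991 lay 3531 and 848 bp from the start site of ENSG00000288935. The outermost upstream region, chr16:4293760-4294563, had 119 per kb.

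Within GLIS2 there were 3 distal regions, all intronic. chr16:4319521-4320329 had a signal of 551 and 681 per kb, higher than 91.3% of distal regions, and held 2 NEUROD1 E-boxes and 1 GC box. chr16:4327949-4328541, which covered the start site of the antisense gene GLIS2-AS1, had 362 per kb. chr16:4327316-4327599, also in GLIS2-AS1, had 214 per kb. Reads over GLIS2 and its antisense gene cannot be told apart. Over all 7 distal regions of GLIS2 the median was 681 per kb, 5 of 7 were in the upper 25% of distal regions and 3 of 7 in the top 5%. Per 100 kb of the 36.0 kb nearest to its start sites, GLIS2 had 19.4 distal regions, higher than 99.8% of genes.

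GLIS1 (chr1:53506237-53739164, minus strand, 233 kb) had the fewest regions of the 3. Its promoter region chr1:53739203-53739630 ended 39 bp before the start site at 53739164, with a signal of 238 over 428 bp, or 557 per kb, higher than 53.9% of promoter regions. It was the narrowest GLIS promoter region. The 250 bases before the start site, printed above, were 82.0% G and C and held 5 GC boxes and a CCAAT box 138 bases before it. GC boxes occurred in 42.6% and CCAAT boxes in 32.0% of RefSeq windows of this kind. The start site at 53734204 had no region within 2 kb, and the nearest was 4999 bp away.

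The 4 distal regions of GLIS1 were all modest. The intergenic chr1:53755963-53756191, 16913 bp upstream, had a signal of 48.9 and 214 per kb, and held a FOXA match. In introns, chr1:53682109-53682354 had 200.0 per kb, chr1:53685196-53686029 had 146 and chr1:53715269-53715442 had 133. None of the 4 was in the upper 25% of distal regions, and 2 were above the median. GLIS1 had 155 kb of nearest sequence and had 2.59 distal regions per 100 kb of it, beside the median of 2.50 over genes.

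**Figure D2:**
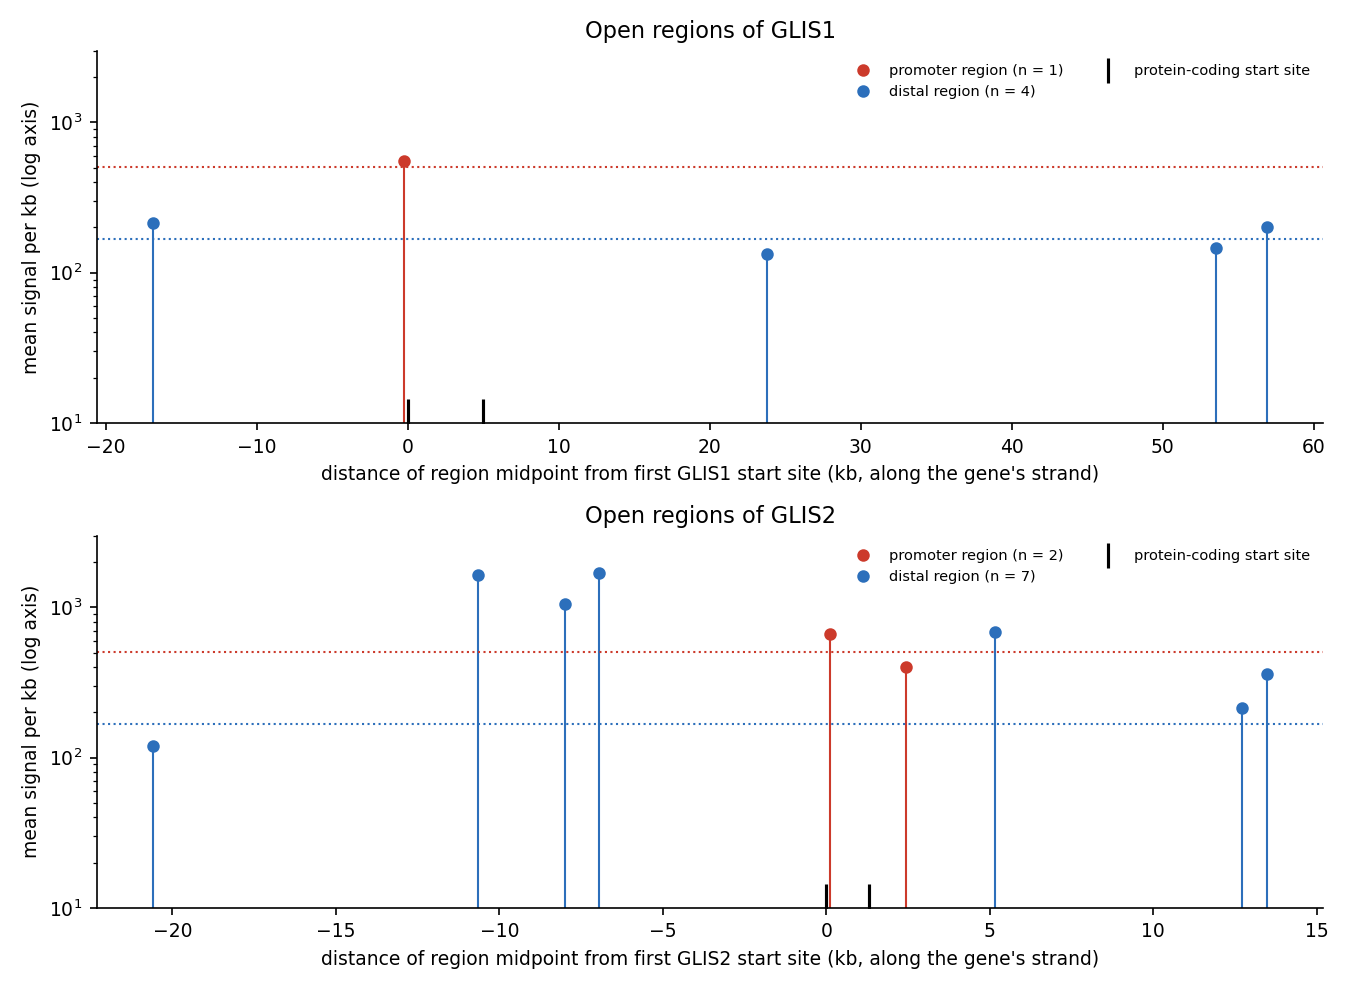
Level of each open region of GLIS1 and GLIS2 (mean signal per kb, log axis, mean over all 6 libraries, no error available) against the distance of its midpoint from the first start site of the gene in kb. Dotted lines mark the medians of all promoter (507, red) and all distal regions (168, blue). In the lower panel, 3 distal regions upstream of GLIS2 stand between 1045 and 1703 per kb, above its promoter regions at 669 and 399.

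In GLIS2 and GLIS3, but not in GLIS1, the strongest distal region exceeded the strongest promoter region per kb. The ratio was 2.55 for GLIS2, 2.41 for GLIS3 and 0.384 for GLIS1. Not divided by width, it was 1.01, 1.45 and 0.511, so that GLIS2 had no clear excess on that scale. Of the 11004 genes with both kinds of region, 37.9% had a ratio over 1, and the median was 0.681. By the ratio per kb, GLIS2 was higher than 86.3% and GLIS3 higher than 85.4% of these genes, and by the undivided ratio they were higher than 72.2% and 79.4%. The ratio takes the strongest of a gene's distal regions, so it can rise with their number. GLIS2 had 7 and GLIS3 had 23, beside a median of 1 over all protein-coding genes, and the ranks were not adjusted for this. Over all 34 distal regions, 20 were above the median of all distal regions, 10 in the upper 25% and 4 in the top 5%, of which 3 belonged to GLIS2 and 1 to GLIS3.

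**Figure D3:**
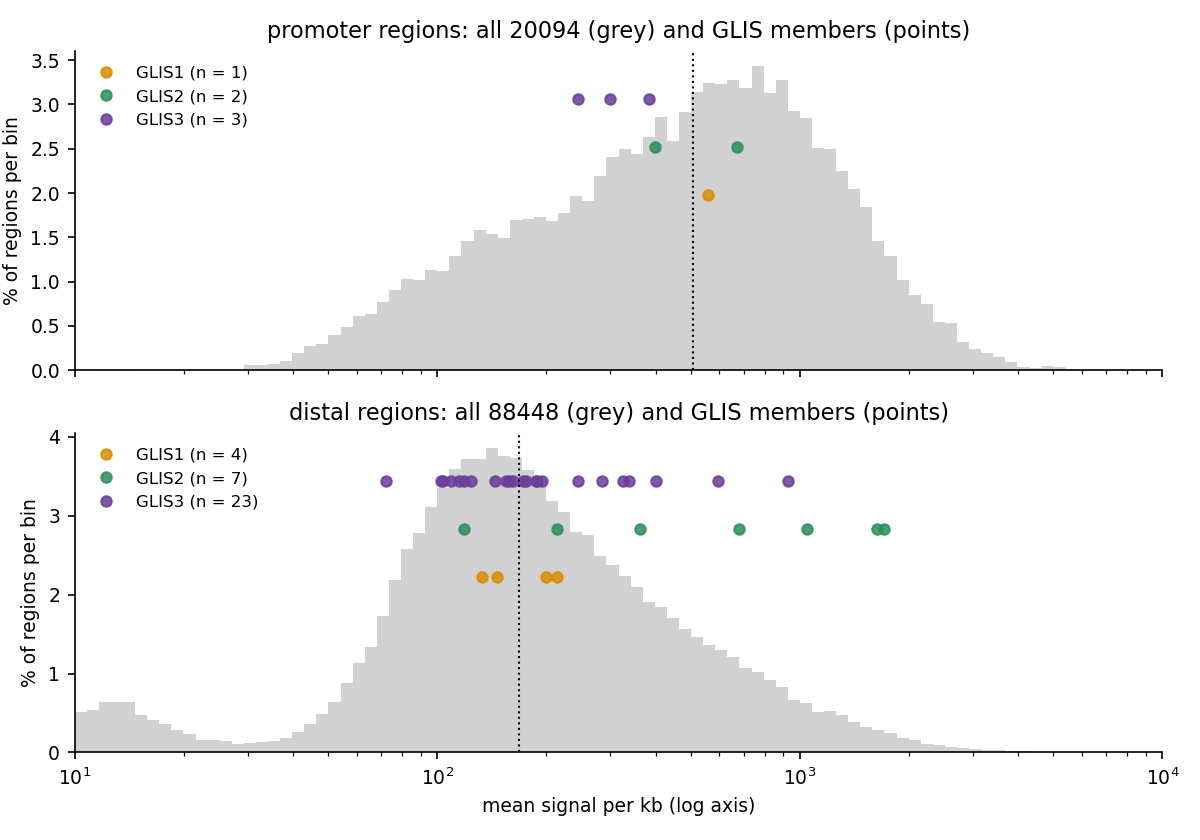
Distribution of mean signal per kb (log axis, percent of regions per bin) over all promoter regions and all distal regions of the table, with GLIS regions as coloured points at arbitrary heights and dotted lines at the medians. GLIS3 promoter points lie left of the promoter median of 507, while GLIS2 distal points reach 1703. Bins run from 10 to 10000 per kb, and regions outside them are not drawn.

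Relatives of the GLIS genes mostly had less open promoters than these or no promoter region. Of 7 GLI and ZIC genes, 5 had a promoter region, with a median of 179 per kb. GLI3 (1020 per kb) and GLI1 (711), effectors of Hedgehog signalling, were above all 3 GLIS genes. ZIC2 (179), ZIC5 (124) and ZIC1 (92.4), known from neural development, were below them. GLI2 and ZIC4 had no promoter region. Their distal regions numbered 0 to 11, so that none had as many as GLIS3.

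Known partners and targets of GLIS proteins spanned a wide range. Of 18 genes, 17 had a promoter region, from 44.8 to 3154 per kb with a median of 748, and 12 were above GLIS3. SUFU, a cytoplasmic binding partner of GLI and GLIS proteins, was the highest at 3154. The insulin gene INS, which GLIS3 activates, had 2715, and NEUROD1, an endocrine bHLH factor, had 2164. The lowest were NEUROG3 (44.8), the factor of endocrine progenitors, ONECUT1 (140) and WWTR1 (286), which encodes a coactivator of GLIS3. CCND2, a cyclin gene, had no promoter region.

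Among 17 beta cell transcription factor genes, GLIS3 itself included, GLIS3 had the second lowest promoter level, by the strongest region per kb. It shared the highest number of distal regions. All 17 had a promoter region, with a median of 1505 per kb, and 15 were above GLIS3. NEUROD1 (2164), FOXA2 (2084) and ST18 (2070) were the highest, while RFX3 (635) and FEV (160) were, with GLIS3, the lowest. By number of distal regions, GLIS3 and ST18 had 23 each, and the median of the list was 13. This ordering is across genes in 1 pooled mean, and genes are not replicates. The list was not ranked by the sum over promoter regions or by undivided signal. GLIS3 had 350 kb of nearest sequence, and the numbers of distal regions in the list were not divided by such lengths.

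**Figure D4:**
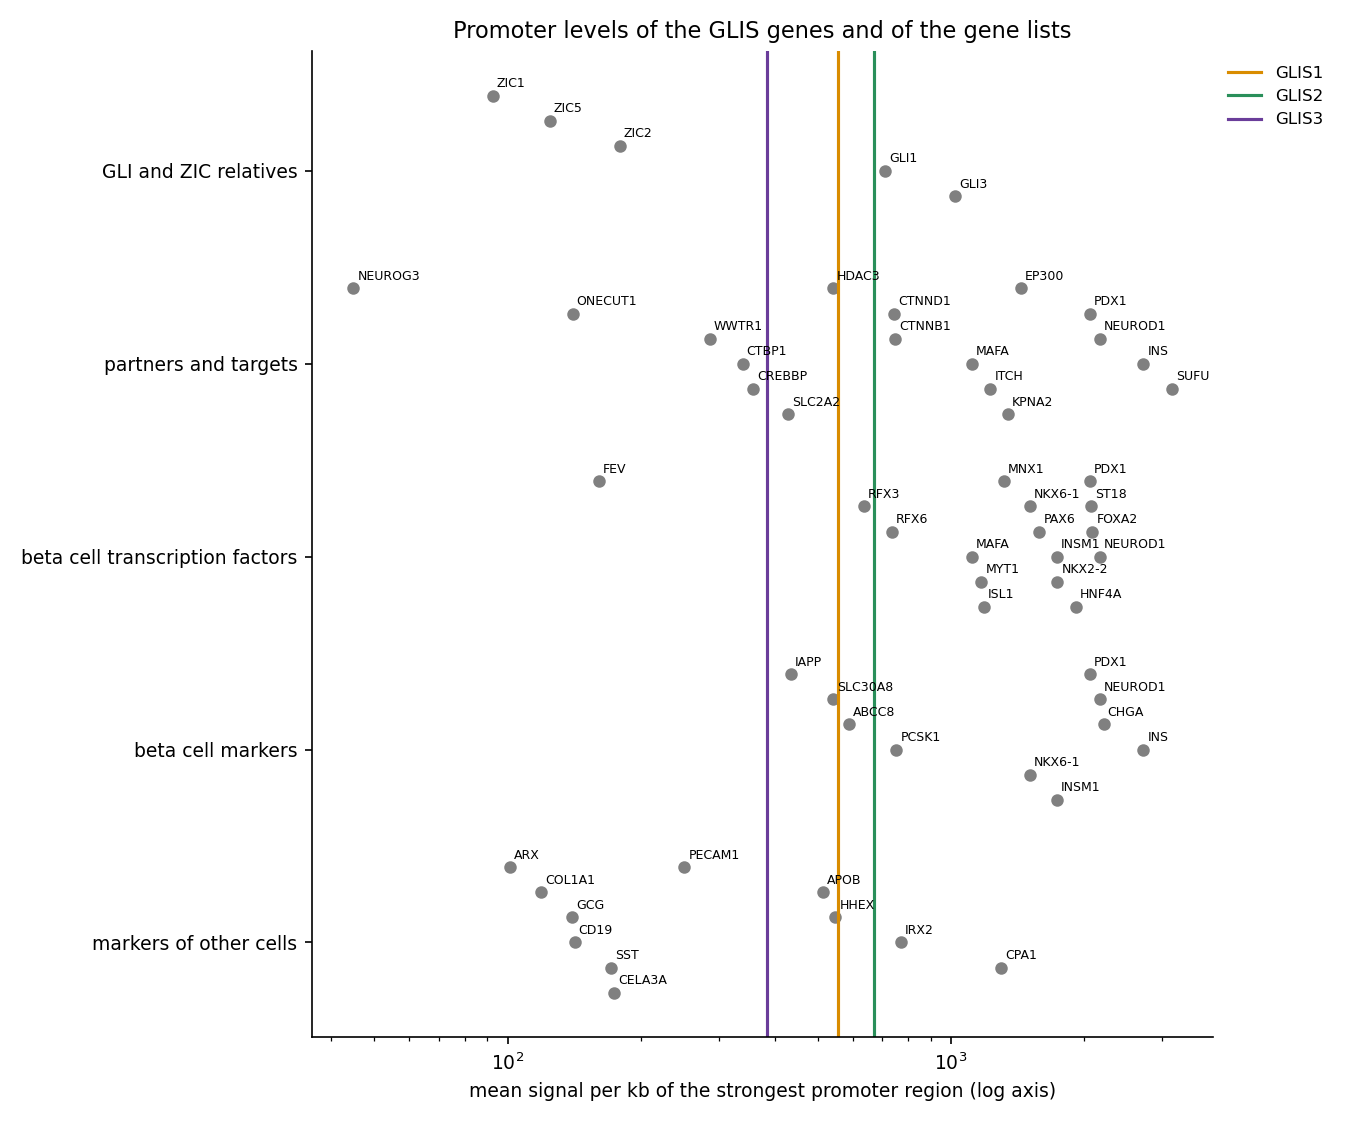
Mean signal per kb of the strongest promoter region of each gene (log axis, mean over all 6 libraries, no error available), for 5 gene lists in rows, with vertical lines at GLIS1 (557), GLIS2 (669) and GLIS3 (385). Vertical jitter within a row carries no value, and genes with no promoter region are not drawn. Most beta cell transcription factors stand right of all 3 lines.

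The promoters of the genes beside the GLIS genes had levels from 152 to 2123 per kb. Around GLIS3, the next gene with lower coordinates was RFX3, with 635 per kb, a factor of beta cell maturation and cilia. SLC1A1, a glutamate transporter gene 190 kb away on the other side, had 262. PUM3, PLPP6 and SPATA6L had 634, 554 and 571, and KCNV2 had no promoter region. Around GLIS2, TFAP4 had 825, CORO7-PAM16 had 670, PAM16 had 533, ADCY9 had 491 and VASN had 152, while SRL had no promoter region. Around GLIS1, NDC1, a nuclear pore gene, had 2123, MAGOH had 843 and LRP8 had 536. YIPF1 and DIO1 shared 1 promoter region, with 374 per kb, and DMRTB1 had no promoter region.

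The labelled cell type was checked against marker genes. All 10 beta cell marker genes had a promoter region, from 435 to 2715 per kb with a median of 1618, INS being the highest and IAPP the lowest. Of 17 markers of blood, liver, endothelial, fibroblast, acinar, alpha and delta cells, 11 had one. They ran from 101 to 1298 per kb with a median of 174, so the ranges of the 2 lists overlapped. CPA1, an acinar protease gene, was the highest of these at 1298. The alpha marker IRX2 (771) and the delta marker HHEX (548) were also above IAPP. PTPRC, CD3E, ALB, CDH5, COL3A1 and PRSS1 had none, though each had a distal region, with the highest level in ALB at 1018 per kb.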

How the data were processed

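ATAC-seq libraries of 3 non-senescent and 3 senescent EndoC-βH3 cultures were analysed from the deposited table. According to its methods, the authors trimmed reads with Trim Galore and Cutadapt, used Bowtie2 for alignment to hg38, dropped duplicates and reads of the mitochondrial genome, moved read ends to the Tn5 cut and found peaks with MACS2. Reads under the union of peaks were then counted per library by the authors. The deposited signal is the authors' mean of normalized counts over all 6 libraries, with 1 value per region. The table also holds fold changes, standard errors and p-values of the authors' own comparison by DESeq2, which were not used. It holds 0 columns per library, so depth per library and replicate spread are unknown, and no comparison of the groups was computed here.

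Starts were read as 0-based and are printed 1-based. All 108542 regions lay within the chromosomes of the hg38 reference. GENCODE release 44 gave start sites and annotation. Mean signal was divided by region width in kb, and ranks are the percent of regions or genes with a lower value. Motifs were searched in the 300 bases centred on each midpoint, so windows of narrower regions reach past their ends. RefSeq windows were cut to the 250 bases before the start site. Assignment and motif search were tested on simulated data. Python 3.11.15 and pandas 2.3.3 were used.

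Members and lists were chosen with earlier results of these data known. Named genes are the GLIS genes, the 3 highest and 3 lowest of each list by promoter level, those without a promoter region, and 3 neighbours on each side. No gene of like pattern is named, since 1 pooled value gives no pattern. A total of 4 listed genes are not reported here, and ranks within lists are over the others. The markers given with a level were named after their values were seen.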

Additional observations from a re-analysis of the deposited data

How the results depend on the processing

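The values have no replicates, so a count or level was read as moved where it changed by over 1.5 times and a rank where it changed by over 10 percentage points. A promoter window of 1 kb or 0.5 kb moved no median level, total count or rank of the family. At 0.5 kb, GLIS2 kept 1 promoter region and had 8 distal ones. With a distal limit of 50 kb, GLIS3 kept 14 distal regions and the family 24. Without a limit, which was chosen after seeing the data, the family had 45. Among start sites of all gene types, GLIS1 and GLIS2 kept 1 distal region each, since noncoding genes were then nearest to the others. GLIS3 had 28, with start sites of its own noncoding transcripts also counted. Keeping only regions of a mean signal from 50 upward left 24 distal regions, and the median GLIS distal level was then higher than 43.0% of distal regions, down from 55.2%. Not dividing by width put the promoter level of GLIS1 above 16.5% and that of GLIS2 above 74.1% of genes, and left GLIS3 at 28.5%. Summing over promoter regions put GLIS2 above 64.4% and GLIS3 above 57.8% of genes. The low promoter rank of GLIS3 thus held for its strongest region but not for the sum over its 3 regions. Each of these 3 lay below the median of all promoter regions. Searching whole regions moved 13 of 28 motif counts, and AP-1 then occurred in 10 of 34 distal regions, beside 18.0% of all distal regions. Not dividing by width, an alternative chosen after seeing the data for this value, took the ratio of the strongest distal to the strongest promoter region from 2.55 to 1.01 in GLIS2 and from 2.41 to 1.45 in GLIS3.

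No paired analysis was possible because single libraries have no values here. Leaving out replicates and comparing senescent with non-senescent cells were not run, as both need such values.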
